A study of Sus scrofa with 32 samples.

Results

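The liver comparison of high and low fat deposition covered 16 of the 32 RNA libraries of the study. It held every library whose source is liver, 8 from pigs with high fat deposition (HFD) and 8 from pigs with low fat deposition (LFD). The other 16 libraries came from fat tissue of pigs of the same 2 kinds. All animals were Złotnicka White females of 180 days, a Polish native breed kept without strong selection, and they received the same feed and housing at a test station. No treatment was given, and the groups were picked from a larger set of pigs after fat was measured in the carcass. The fat group of a library stands in the sample descriptions under a tag named shear force, with the values high fat content and low fat content. The comparison asks which genes have another RNA level in the livers of pigs that laid down more fat. Reads were counted per gene, and the normalized counts below are counts scaled by the trimmed mean of M-values (TMM) to the mean library size of the 16 livers.

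The liver makes most plasma proteins, among them albumin, fibrinogen, fetuins and the apolipoproteins that carry lipid in blood. It turns surplus carbohydrate into fatty acids when feed is plentiful, and it oxidises fatty acids and makes glucose during fasting. In the pig, adipose tissue is the main place of fatty acid synthesis, so the liver is known more for lipid handling and secretion than for bulk fat synthesis. FGL1, the gene whose variants the study followed up, encodes a fibrinogen-like protein that hepatocytes secrete and that binds the T cell receptor LAG3.

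The livers held between 19837882 and 30457374 counts per library, from 2 runs that were added. The mitochondrially encoded genes took between 2.46% and 7.01% of the counts. LFD replicate 7 stood apart, with 47.2% of its counts in its 10 most counted genes against 21.3% to 26.8% in the other livers, and a TMM factor of 0.696 against 0.912 to 1.16. In it 1 gene without a symbol, ENSSSCG00000047299, took 22.9% of the counts, against at most 1.38% in any other liver. The summed level of 10 hepatocyte markers (albumin, transthyretin, transferrin and others) was given in CPM (counts scaled to the library total). It ran from 112894 to 157742 CPM in HFD livers and from 97847 to 156395 in LFD livers, the lowest in LFD replicate 7. The total of that liver includes the gene with 22.9%, which lowers the CPM of all its other genes. All 10 markers were detected in every liver, as the label liver requires.

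In this comparison no gene passed the threshold of 0.05 on the adjusted p, which corrects for the number of genes by the Benjamini-Hochberg method. The edgeR quasi-likelihood test gave 0 of 13051 genes, with a smallest adjusted p of 0.0817. At an unadjusted p under 0.05 it gave 754 genes (5.78% of those tested), 381 with a higher level in HFD livers (2.92%) and 373 with a lower level (2.86%), against 652.55 that this threshold gives by itself. With libraries scaled by their totals the split was 798 higher and 108 lower, since this scaling moved the median over all genes from 0.003 to 0.103 on the log2 scale. An exact two-sided permutation test of the group means gave 741 genes (5.68%) under 0.05 and 0 after adjustment. DESeq2 gave 5 genes with an adjusted p under 0.05, 1 higher and 4 lower in HFD livers, and limma-voom gave 1. The 5 are 0.0226% of the 22128 genes in the DESeq2 fit, a larger set than that of edgeR. A log2 fold change above 0 below means a higher level in HFD, and genes are described by their values whether or not they passed.

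The gene with the smallest p was PDGFRL, which encodes a secreted protein related to the ligand-binding part of the receptors of platelet-derived growth factor. It lies on chromosome 17 from 5278872 to 5328859 (RefSeq, Sscrofa11.1) and has the identifier ENSSSCG00000006988. The HFD livers held between 45.7 and 143 normalized counts, with a median of 76.9, and the LFD livers between 147 and 312, with a median of 183. Every HFD liver was thus below every LFD liver, although the highest HFD liver, replicate 3, came close to the lowest LFD liver. The log2 fold change was -1.33 with a standard error of 0.22 and an interval from -1.78 to -0.88. The adjusted p was 0.0817 in edgeR, 1.6e-05 in DESeq2 and 0.0424 in limma-voom, and among alternatives with every liver it reached 0.298. Groups that did not overlap were found for 2 of the 13051 genes (0.0153%), 0.00766% in each direction. These were PDGFRL on the lower side and the zinc finger gene ZNF621 on the higher side. Complete separation has an exact permutation p of 0.0001554 for a single gene. The share found is thus about what random assignment of the livers gives, and nothing is read from it.

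AHSG, on chromosome 13 from 124426313 to 124438848, encodes fetuin-A, an abundant plasma glycoprotein made by hepatocytes that binds calcium phosphate and inhibits the insulin receptor. The HFD livers reached from 162282 to 292477 normalized counts around a median of 194478, and the LFD livers from 254645 to 353059 around 305776. In 7 of the 8 HFD livers the level was below that of every LFD liver, and the exception was HFD replicate 3. The log2 fold change was -0.59 with a standard error of 0.11. The adjusted p was 0.194 in edgeR and 0.00127 in DESeq2. At these counts, counting error is small beside the spread between pigs.

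ITGB3, the integrin subunit beta 3 of the platelet fibrinogen receptor and the vitronectin receptor, held between 242 and 575 normalized counts in HFD livers (median 401) and between 440 and 889 in LFD livers (median 730). Here 6 HFD livers lay below every LFD liver, and the groups overlapped through HFD replicates 1 and 3 and LFD replicate 3. The log2 fold change was -0.85 with a standard error of 0.17, and the adjusted p was 0.194 in edgeR and 0.00459 in DESeq2. ENSSSCG00000037791, a gene with no symbol in the reference table, had a log2 fold change of -0.86 with a standard error of 0.17. Its HFD livers kept to a narrow range from 324 to 450 normalized counts, while the LFD livers spread from 405 to 956.

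**Figure D1:**
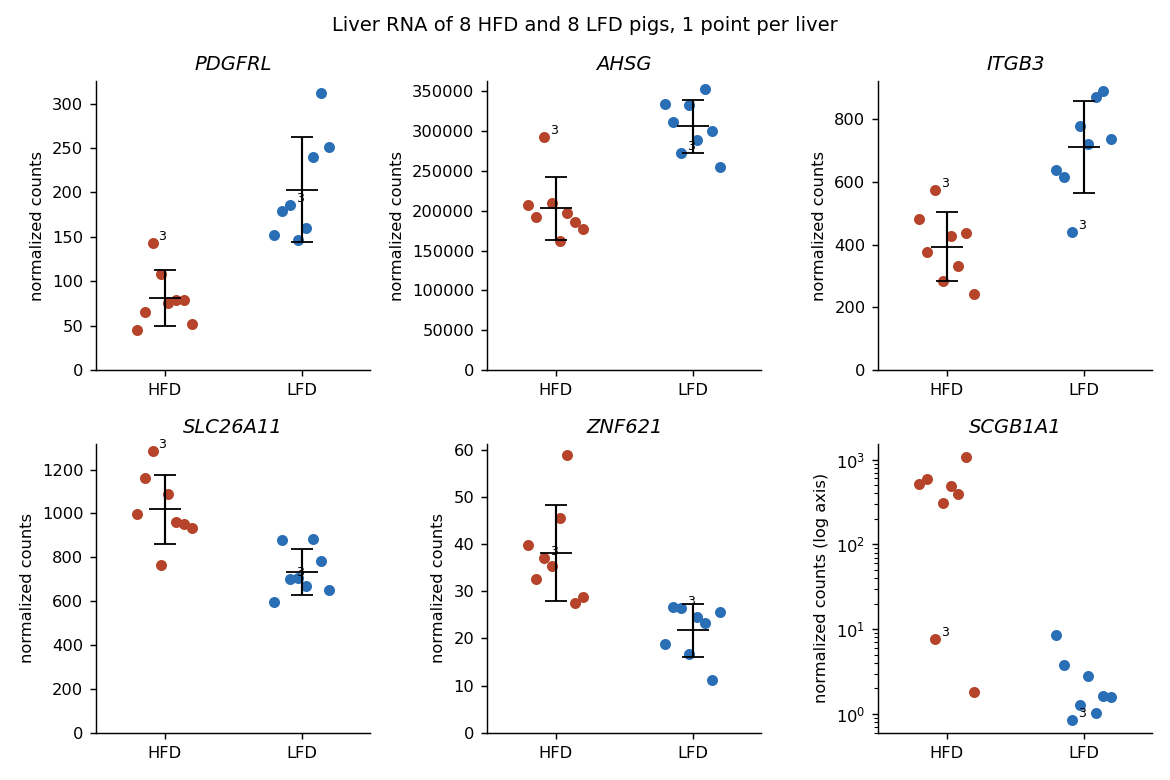
Normalized counts of 6 genes in the 8 HFD livers (red) and 8 LFD livers (blue), 1 point per liver, with the mean and standard deviation in black and the number 3 beside replicate 3 of each group. The SCGB1A1 panel has a log axis and no mean. PDGFRL and ZNF621 show no overlap between the groups, and HFD replicate 3 lies at 143 for PDGFRL and at 292477 for AHSG, nearest to the LFD livers in both.

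Among the 30 genes with a symbol and the smallest p, 15 in each direction, HFD replicate 3 was the HFD liver closest to the LFD livers for 8, more than any other HFD liver. Over the 754 genes with an unadjusted p under 0.05 it was the closest for 191 (25.3%), and LFD replicate 3 was the LFD liver closest to the HFD group for 196 (25.99%). Without HFD replicate 3, 5 genes passed the adjusted threshold in edgeR, all of them lower in HFD livers: PDGFRL, AHSG, ITGB3, GFAP and ENSSSCG00000026520. Leaving out any other single liver gave fewer. This liver was singled out from these same values, so nothing is read from the 5 genes that passed without it. GFAP, an intermediate filament gene of glia that hepatic stellate cells also express, held a median of 6.53 normalized counts in HFD and 37.3 in LFD livers. HFD replicate 3 held 47.2, while the other HFD livers reached at most 13.9. Its log2 fold change was -1.99 with a standard error of 0.50 over all livers and -2.71 without that replicate.

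The other genes with the smallest p and a lower level in HFD livers were of several kinds. ABCD4, a transporter that moves vitamin B12 out of lysosomes, had a log2 fold change of -0.33 with a standard error of 0.08, and 7 HFD livers lay below every LFD liver. CPN1, the catalytic subunit of the plasma enzyme carboxypeptidase N, had -0.36 with a standard error of 0.10. PAPPA2, a protease that cleaves carriers of insulin-like growth factors, had -0.84, with between 20.5 and 60.6 normalized counts in HFD livers and between 48.1 and 90.1 in LFD livers. The mitochondrial medium-chain acyl-CoA synthetase gene ACSM5 had -0.67, and its LFD livers spread from 1140 to 3404 normalized counts while its HFD livers stayed between 1044 and 1713. TP53INP2, which acts in autophagy and in transcription, had -0.84. The tight junction gene CLDN15 had -0.58, the channel gene PANX2 -0.45, the prostaglandin reductase gene PTGR3 -0.37, and OR51E1, INKA2 and TMEM44 had -1.23, -0.88 and -0.39. The adjusted p was at least 0.789 in edgeR for each of these genes and for GFAP.

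Among genes with a higher level in HFD livers, SLC26A11, a sulfate and anion transporter of lysosomes, had the smallest p. Its HFD livers held between 767 and 1283 normalized counts (median 981) and its LFD livers between 598 and 883 (median 702). In 7 of the 8 HFD livers the level was above that of every LFD liver. The log2 fold change was 0.47 with a standard error of 0.11 and an adjusted p of 0.73 in edgeR. ZNF621 held between 27.6 and 58.9 in HFD livers and between 11.3 and 26.6 in LFD livers. The difference was 0.79 on the log2 scale with a standard error of 0.21. The exact permutation p of ZNF621 and of PDGFRL was 0.000155, the smallest that 12870 assignments of the livers can give, and both had an adjusted value of 0.78.

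The other genes with a higher level in HFD livers were of several kinds as well. SYVN1, the ubiquitin ligase that removes misfolded proteins from the endoplasmic reticulum, held a median of 2157 normalized counts in HFD and 1105 in LFD livers, which is 0.81 on the log2 scale with a standard error of 0.22. ALG2, a mannosyltransferase of N-glycan assembly, had 0.44, and SEC22C, a protein of transport between endoplasmic reticulum and Golgi, had 0.41. TCOF1, needed for ribosomal RNA transcription, had 0.47, the transcription factor gene TAF8 0.28 and the histone methyltransferase gene KMT5A 0.33. FBLN2, an extracellular matrix protein, had 1.00, with a median of 121 in HFD and 71.0 in LFD livers. CELSR1, a cadherin of planar cell polarity, had 1.18, FCRL3, a receptor of B cells, had 1.6 and ADAM28, a metalloprotease of lymphocytes, had 0.96. FCRL3 and ADAM28 were low, with medians of 31 and 38.2 normalized counts in HFD livers. Each had an adjusted p of at least 0.777 in edgeR.

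SCGB1A1, which encodes a small secreted protein of airway club cells, was called by DESeq2 alone. The edgeR filter had left it out, since only 6 livers held at least 10 counts. These were HFD replicates 1, 2, 4, 5, 6 and 7, with between 307 and 1078 normalized counts. HFD replicate 3 held 7.66, HFD replicate 8 held 1.80, and the LFD livers held between 0.855 and 8.49. The 6 livers were thus far above all others, and the remaining HFD livers lay within the range of the LFD group. DESeq2 gave a log2 fold change of 7.28 and an adjusted p of 3.59e-12, while edgeR without a low-count filter gave 7.21 with a standard error of 1.10 and an adjusted p of 0.133. The exact two-sided permutation p, unadjusted and for a gene singled out after its values were seen, was 0.00171. In fat tissue SCGB1A1 had 0 counts over all libraries. Of the other airway and alveolar genes, SFTPC and BPIFA1 had 0 counts in every liver, and SFTPB, SCGB3A1 and SCGB3A2 had at most 2. NAPSA, AGER and FOXJ1 were detected in every liver, with 10 to 41, 5 to 33 and 1 to 19 counts, and SFTPD reached 293 counts in LFD replicate 6 against at most 16 elsewhere. The origin of these reads was not tested.

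FGL1 itself, on chromosome 17 from 5546931 to 5596434, did not separate the groups. It held between 8222 and 19278 normalized counts in HFD livers (median 13000) and between 10916 and 18684 in LFD livers (median 12971). The log2 fold change was -0.09 with a standard error of 0.16 and an interval from -0.44 to 0.25, so a difference within that interval could not be told from 0 with these pigs. PDGFRL lies 218.1 kb from FGL1. The paper reports different genotype distributions of FGL1 variants in the HFD and LFD pigs. For several fat measures its means for reference homozygotes repeat those of the LFD group. Fat group and genotype thus went together near FGL1, and the part of genotype in these levels was not tested. The 8 genes with a position in this region, within 500 kb of FGL1 and with FGL1 itself among them, were all tested. Only PDGFRL had an unadjusted p under 0.05, beside 5.78% of all genes tested. A log2 fold change below 0 was found for 5 of the 8, FGL1 included, beside 49.2% of all genes. The region was looked at after the values were seen, so nothing is read from these counts. MTUS1, which lies between PDGFRL and FGL1, had -0.12. On the other side of PDGFRL the arginine transporter gene SLC7A2 had 0.16 and the phosphatase gene MTMR7 had 0.42 with a standard error of 0.32.

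AHSG lies in a cluster of cystatin-type plasma protein genes on chromosome 13, and its neighbours were measured in the same way. FETUB, which encodes fetuin-B, had a log2 fold change of -0.57 with a standard error of 0.19, and HRG, which encodes the histidine-rich glycoprotein, had -0.50 with a standard error of 0.15. Their unadjusted p in edgeR were 0.00641 and 0.00319. KNG1, the kininogen gene next in the cluster, had -0.19 with a standard error of 0.13. The HFD livers held between 96358 and 137493 normalized counts of HRG and the LFD livers between 100642 and 227589, so these groups overlapped more than those of AHSG. Of 11 genes tested within 500 kb of AHSG, 3 had an unadjusted p under 0.05, namely AHSG, FETUB and HRG, beside 5.78% of all genes tested. AHSG was made the centre for its small p, and its neighbours were chosen after their values were seen, so nothing is read from this count.

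Among the 30 genes, 24 had a position in RefSeq, and 2 pairs lay within 500 kb of each other. SLC26A11 and SGSH, which encodes a lysosomal enzyme of heparan sulfate breakdown, are 22 bases apart on chromosome 12. SGSH held between 342 and 663 normalized counts in HFD livers and between 294 and 420 in LFD livers, which is 0.42 on the log2 scale with a standard error of 0.12. The kit used does not mark the strand, so reads at the border of such neighbours cannot be told apart. On chromosome 7, 90.3 kb separate TEAD3, a transcription factor of the Hippo pathway, from FKBP5, a co-chaperone of the glucocorticoid receptor that glucocorticoids induce. TEAD3 had a log2 fold change of 0.38 with a standard error of 0.10 and FKBP5 one of 0.53 with a standard error of 0.15. FKBP5 ran from 2005 to 3452 normalized counts in HFD livers and from 1060 to 2622 in LFD livers, and 4 HFD livers lay above every LFD liver. ARMC12, 32.8 kb on the far side of FKBP5, had 0.78 with a standard error of 0.30, and 4 of the 12 genes tested within 500 kb of FKBP5 had an unadjusted p under 0.05, beside 5.78% of all genes tested. Among these, TEAD3 and FKBP5 had been picked for their small p, and the others were ARMC12 and ANKS1A, with 0.0177 and 0.0382. The 12 include FKBP5 itself, and its neighbours were chosen after their values were seen, so nothing is read from this count.

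**Figure D2:**
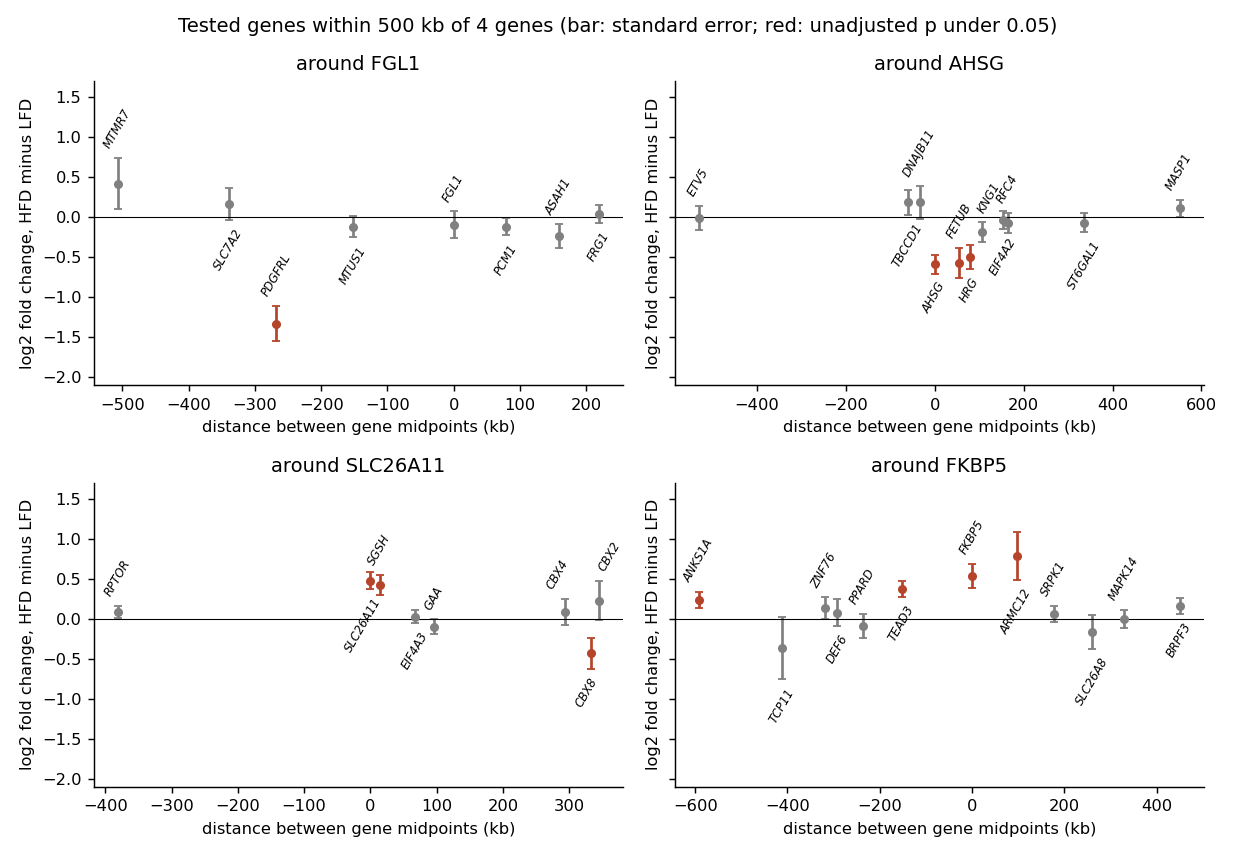
Log2 fold change in liver (HFD minus LFD, bar: standard error) of the tested genes within 500 kb of FGL1, AHSG, SLC26A11 and FKBP5, placed by the distance between gene midpoints in kb. Red marks an unadjusted p under 0.05. PDGFRL at -1.33 is the only red point around FGL1, and AHSG, FETUB and HRG stand side by side between -0.59 and -0.50.

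The same contrast in fat tissue gave 0 genes past the adjusted threshold of edgeR and 870 of 13082 (6.65%) with an unadjusted p under 0.05. The difference between the tissues was tested as an interaction over all 32 libraries, in which 0 of 14324 genes passed and 896 (6.26%) had an unadjusted p under 0.05. PDGFRL was lower in HFD pigs in fat too, with a log2 fold change of -0.45 (unadjusted p 0.0161), and the liver effect minus the fat effect was -0.88 with an adjusted p of 0.587 in edgeR. ENSSSCG00000037791 had -1.39 in fat, from 665 to 1254 normalized counts in HFD and from 1015 to 3724 in LFD fat, with an adjusted p of 0.292 in the edgeR fit of fat. Of the 30 genes with a symbol and the smallest liver p, 26 were tested in fat. In 17 of these the sign was the same as in liver, beside 53.6% of all genes tested in both tissues. With an unadjusted p under 0.05 in the edgeR fit of fat, 3 had the same sign, beside 3.45% of all genes, and 2 the opposite sign. The share with the opposite sign was not counted over all genes, so nothing is read from these counts. SLC26A11 and SGSH had 0.52 and 0.38 in fat, close to their liver values. TP53INP2 had the opposite sign, 0.42 in fat against -0.84 in liver, and the difference of -1.26 had an unadjusted p of 0.000252 and an adjusted p of 0.338 in edgeR. For AHSG, which fat hardly expresses, the difference of -3.0 became -1.26 without fat HFD replicate 2, the fat library with the most of it, 2413 normalized counts. The sample descriptions do not say whether liver and fat libraries come from the same pigs.

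**Figure D3:**
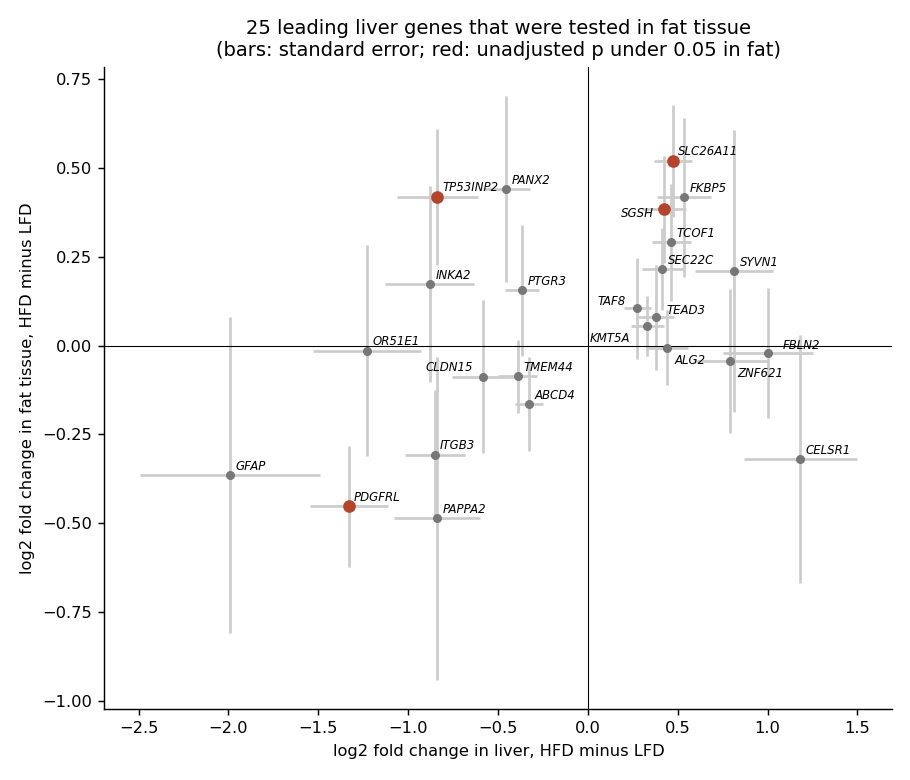
Log2 fold change (HFD minus LFD) in liver, on the horizontal axis, and in fat tissue, on the vertical axis, of the 25 genes with the smallest liver p that were tested in fat, with AHSG left out because 1 fat library sets its value. Bars are standard errors and red marks an unadjusted p under 0.05 in fat. SLC26A11 and SGSH lie at 0.52 and 0.38 in fat, PDGFRL at -0.45, and TP53INP2 at 0.42.

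Gene lists of liver metabolism were then described by how many of their tested members had an unadjusted p under 0.05, beside the 2.92% higher and 2.86% lower over all genes. In no list did a member pass the adjusted threshold. Together 29 of the lists held 377 entries with a symbol, some of them not tested or in more than 1 list. Over all lists, 28 members were under 0.05, and 23 of them were not when some single liver was left out. APOM, PPP1R3B, FKBP5, TYMS and AHSG alone stayed under it in every such fit. The same count was not made over all genes, so nothing is read from these 5. The members of fatty acid oxidation and ketone body formation mostly had log2 fold changes below 0, 22 of 24, against 49.2% of all genes, with a median of -0.12. Of these, 3 had an unadjusted p under 0.05, among them ACAA2, the last enzyme of mitochondrial beta-oxidation (-0.42, standard error 0.18), and ETFDH, which passes its electrons to the respiratory chain (-0.21). The count of 3 ran from 0 without LFD replicate 2 to 4 without LFD replicate 1. With library totals as the scale 13 of the 24 were below 0, and 22 were below the median of all genes.

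PPARA, the fasting-induced regulator of fatty acid oxidation, and its target CPT1A, which admits fatty acids to mitochondria, had log2 fold changes of -0.53 and -0.56 with standard errors of 0.27 and 0.30. LFD replicate 8 was the highest liver for both, with 3027 and 5797 normalized counts against group medians of 1006 and 1878. Without it their unadjusted p in edgeR went from 0.062 and 0.0776 to 0.253 and 0.277. The same liver held 54383 normalized counts of CYP1A2, a drug-metabolising cytochrome P450, against at most 14200 in the other LFD livers. CYP1A2 had -0.83 with an unadjusted p of 0.0408, which was 0.209 without LFD replicate 8.

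Apolipoproteins and genes of lipoprotein handling showed a like pattern, with 15 of 18 below 0 and a median of -0.12, and 12 below 0 with library totals as the scale. APOM, the carrier of sphingosine 1-phosphate on HDL, held between 1646 and 3067 normalized counts in HFD livers and between 2226 and 3284 in LFD livers, which is -0.31 on the log2 scale with a standard error of 0.12. Its unadjusted p was 0.0153 and stayed at or below 0.0362 when any liver was left out. The 4 most abundant members were APOE with -0.20, APOC3 with 0.01, APOH with -0.23 and APOA1 with -0.08, each with a standard error between 0.10 and 0.14 and none under 0.05.

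Genes of fatty acid synthesis showed no shared direction. Of 15 tested, 10 were above 0, the median was 0.051, and MLXIPL, the carbohydrate-sensing transcription factor ChREBP, was the only member under 0.05 (0.24, unadjusted p 0.0491). FASN, the fatty acid synthase, had 0.60 with a standard error of 0.40 and ran from 12727 to 84663 normalized counts in HFD and from 5845 to 51891 in LFD livers. SCD, the stearoyl-CoA desaturase, had 0.065 with a standard error of 0.46. FADS1 and FADS2, the desaturases of polyunsaturated fatty acids, had -0.81 and -0.47 with standard errors of 0.43 and 0.32. The ranges of the groups overlapped widely, and the differences were within the spread between pigs.

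In triglyceride synthesis and lipid droplets 1 of 20 genes was under 0.05, G0S2, an inhibitor of the main triglyceride lipase (-0.75, unadjusted p 0.039, and 0.14 without LFD replicate 6). The median of the list was 0.029, and GPAM and DGAT2, which catalyse its first and last steps, had 0.29 and -0.24. In fatty acid uptake 1 of 10 was under 0.05, the lipoprotein lipase gene LPL, with 2.36. LPL held 242 normalized counts in HFD replicate 2 and at most 72.1 in the other livers, and its unadjusted p was 0.0591 without that liver. The fatty acid binding protein gene FABP4, an adipocyte marker, held 241 in the same liver against at most 45.9 in the others. HFD replicate 2 also had 365 counts of ADIPOQ, the adiponectin gene, against at most 86 elsewhere, and the part of adipocyte RNA in the LPL value was not tested. Cholesterol synthesis and bile acid genes had 0 of 22 and 0 of 11 members under 0.05, with medians of -0.061 and -0.043.

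**Figure D4:**
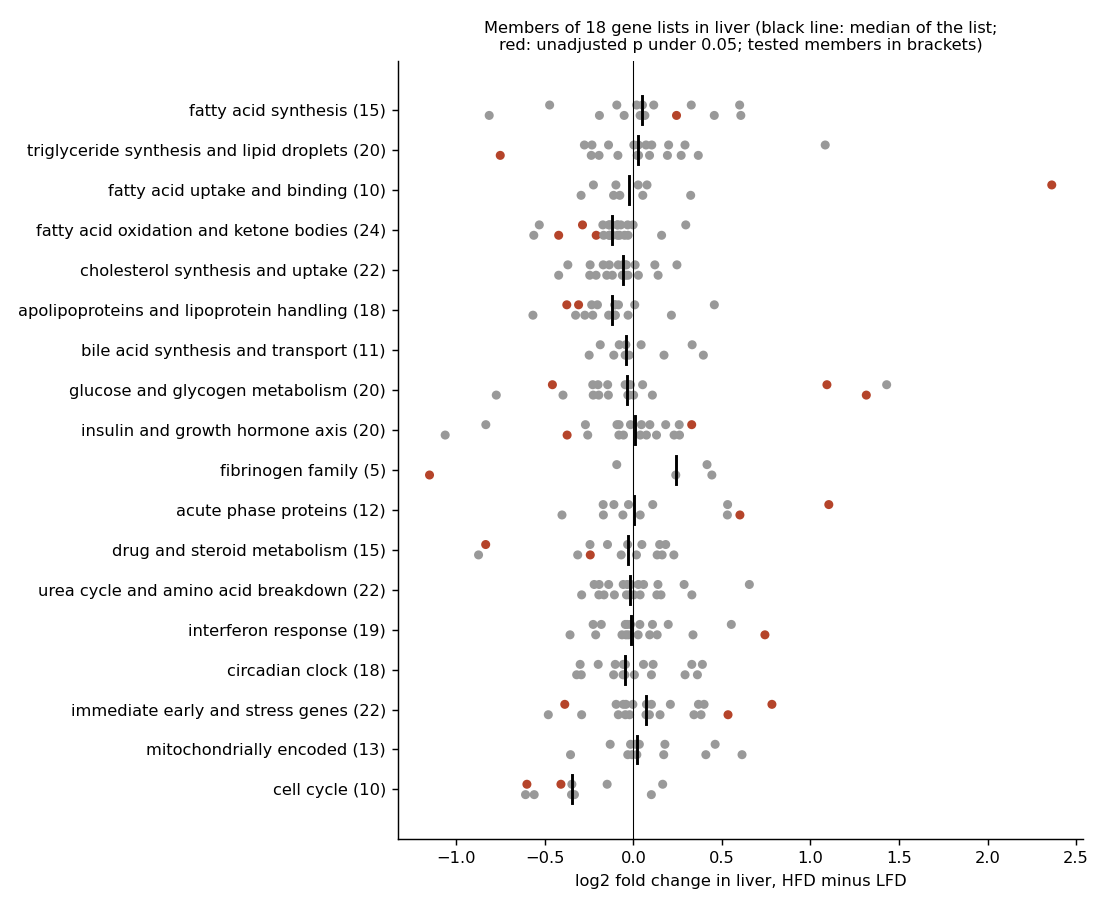
Log2 fold change in liver (HFD minus LFD) of the tested members of 18 gene lists, 1 point per gene, with the number of members in brackets and the list median as a black line. Red marks an unadjusted p under 0.05. Fatty acid oxidation and lipoprotein genes lie mostly left of 0, with medians of -0.12, and the red point at 2.36 is LPL.

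In glucose and glycogen metabolism, 3 of 20 genes were under 0.05. PPP1R3B and PPP1R3C, which bring protein phosphatase 1 to glycogen and so favour its synthesis, had log2 fold changes of 1.09 and 1.32 with standard errors of 0.40 and 0.52. GYS2, the liver glycogen synthase, had -0.46 with a standard error of 0.19. The unadjusted p of GYS2 was over 0.05 without any 1 of HFD replicates 1, 6 and 8 and LFD replicates 4 and 8, at most 0.0859, and that of PPP1R3C was 0.0501 without HFD replicate 8. The highest levels of PPP1R3B stood in HFD replicates 1, 7 and 8, with 4420, 7139 and 6730 normalized counts against a highest LFD value of 2078. HFD replicates 2 and 6 held 2646.5 and 2080.4, also above every LFD liver, while HFD replicates 3, 4 and 5 held 1601, 923 and 1321. HFD replicates 1, 7 and 8 also held the most PFKFB3, an activator of glycolysis, with 1057, 1620 and 2860 normalized counts. They were also the 3 livers with the least PCK1, the fasting-induced enzyme of gluconeogenesis, with 8960, 4876 and 3452, while HFD replicate 3 and LFD replicate 8 held 74328 and 72957. PFKFB3 and PCK1 had log2 fold changes of 1.43 and -0.77 and unadjusted p of 0.0742 and 0.204, and the spread within HFD was wider than the difference between groups.

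In the insulin and growth hormone axis FOXO1, a transcription factor that insulin holds back, had 0.33 and the growth hormone receptor gene GHR -0.37, each with an unadjusted p under 0.05 among 20 tested. Leaving out 1 liver took FOXO1 over 0.05 in 7 fits, up to 0.0818 without HFD replicate 5, and GHR in 10, up to 0.105 without LFD replicate 6. IGFBP1, a carrier of insulin-like growth factors that insulin represses, varied most within the groups, from 19.8 to 4157 normalized counts in HFD livers and from 809 to 8484 in LFD livers, and had -1.06 with a standard error of 0.85. LEPR, the leptin receptor gene, had -0.83 with a standard error of 0.44, and its highest value, 949, was again in LFD replicate 8.

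Acute phase genes, which the liver makes more of in inflammation, were led by 1 liver. HFD replicate 4 held 244103 normalized counts of ITIH4, an acute phase protein of the pig, against at most 66446 in the other HFD livers and 37955 in LFD livers. It also held the most CRP, C-reactive protein (85309), APCS, serum amyloid P (42058), FGB (755520) and FGG (486578). ITIH4 and APCS had log2 fold changes of 1.10 and 0.60 and were the 2 of 12 members under 0.05, and 0 were under 0.05 without HFD replicate 4. FGB and FGG, the beta and gamma chains of fibrinogen, had 0.44 and 0.42 with standard errors of 0.24 and 0.26, and 0.13 and 0.057 without HFD replicate 4. The unadjusted p of FGB was 0.083 over all livers, 0.405 without that liver and 0.0324 without HFD replicate 7, its lowest. LAG3, the receptor of FGL1 on T cells, was low and had -1.15, with an unadjusted p of 0.0297 and of 0.162 without LFD replicate 5, its highest liver at 62.5 normalized counts.

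**Figure D5:**
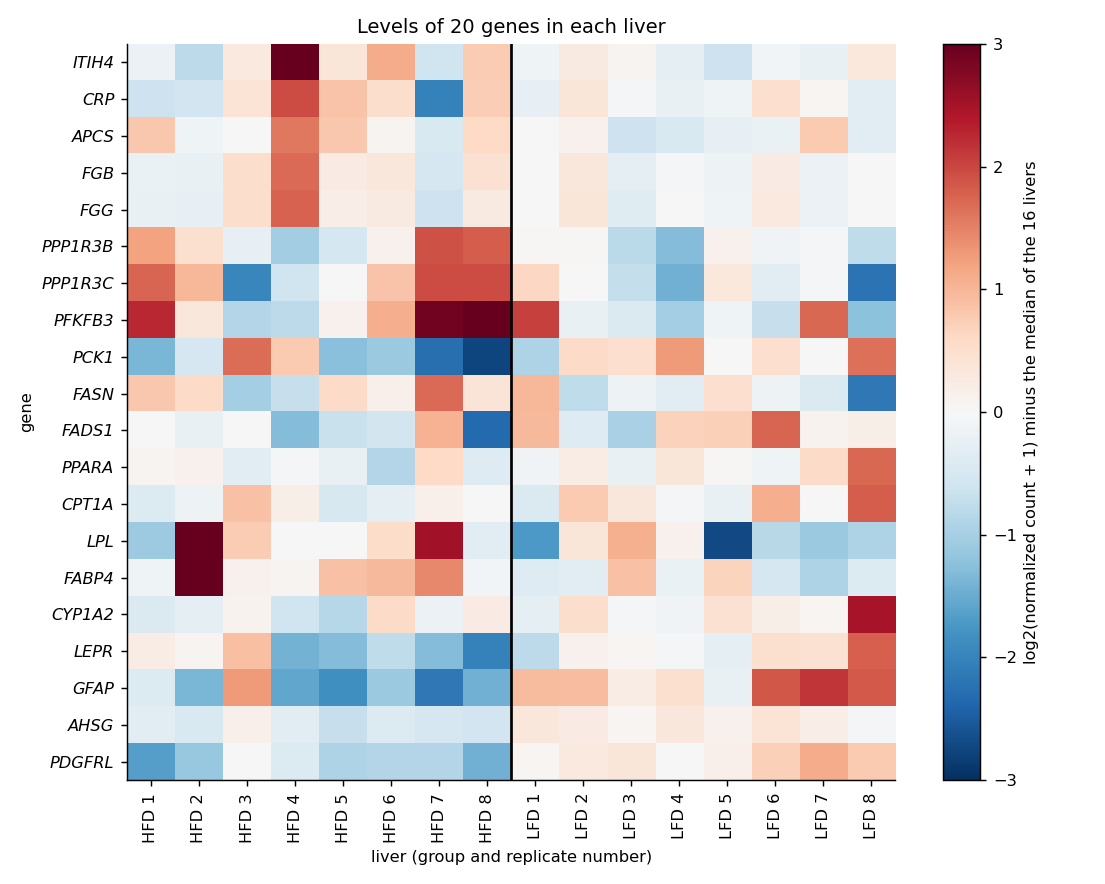
Level of 20 genes (rows) in each of the 16 livers (columns), as log2(normalized count + 1) minus the median of the 16 livers, with colours that saturate at 3 in either direction. HFD replicate 4 stands out for ITIH4 to FGG, HFD replicates 1, 7 and 8 for PPP1R3B, PPP1R3C and PFKFB3, HFD replicate 2 for LPL and FABP4, and LFD replicate 8 for PPARA, CPT1A, CYP1A2 and LEPR.

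The remaining lists of liver function had between 0 and 3 members under 0.05. Urea cycle and amino acid genes had 0 of 22 members under 0.05, the circadian clock 0 of 18 and the mitochondrially encoded genes 0 of 13, with medians of -0.017, -0.046 and 0.020. Interferon response genes had 1 of 19, OAS1 (0.74, unadjusted p 0.0351 and 0.0767 without HFD replicate 2). Drug and steroid metabolism had 2 of 15, CYP1A2 and HSD11B1, which regenerates cortisol in liver (-0.24). Stress genes had 3 of 22: FKBP5, TRIB3, a pseudokinase of the stress response (0.78), and the asparagine synthetase gene ASNS (-0.39). Cell cycle genes had 2 of 10, TYMS, the thymidylate synthase (-0.60, unadjusted p 0.00903), and BIRC5, survivin (-0.41), with 8 of 10 below 0 and a median of -0.35. With library totals as the scale the medians of the cholesterol, bile acid, glucose, urea, interferon, clock, drug, uptake and hepatocyte lists turned positive. Each of them still lay below the median of all genes, which this scaling moved to 0.103.

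Markers of other liver cells were compared in the same way, and in bulk RNA fewer cells of a type and less RNA per cell cannot be told apart. Macrophage and endothelial markers had 0 of 11 and 0 of 7 members under 0.05, with medians of 0.001 and 0.027. Their summed levels overlapped. The macrophage list ran from 1274 to 2042 CPM in HFD and from 892, in LFD replicate 7, to 2071 in LFD livers. In LFD replicate 7 the gene with 22.9% of the counts lowers all other CPM. The endothelial list ran from 399 to 832 in HFD and from 288 to 835 in LFD livers. Among stellate cell and fibroblast markers COL1A1, a chain of type I collagen, had 0.95 with an unadjusted p of 0.0415, 1 of 10, and 8 of the 10 were above 0. The p of COL1A1 was over 0.05 in 9 of the 16 fits without 1 liver, up to 0.0906 without HFD replicate 7, and without HFD replicate 1 the list had 3 members under it with a higher level in HFD livers. Lymphocyte markers were mostly below 0, 8 of 9 with a median of -0.22, and CD4 (-0.62) was the 1 under 0.05, while without LFD replicate 5 only 4 were below 0. Neutrophil, bile duct and erythroid markers had 0 of 3, 0 of 5 and 0 of 4 under 0.05. Adipocyte markers had 1 of 3, FABP4, and 0 without HFD replicate 2. No skeletal muscle marker passed the filter, the pancreas list had 0 of 1 and the lung list, added after the SCGB1A1 values were seen, 0 of 3.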

How the data were processed

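The authors deposited raw gene counts as whole numbers, without normalization, listed by Ensembl identifier, from TruSeq libraries sequenced as paired ends. The submitters' processing notes name FastQC, STAR, RSEM and DESeq2 and the build Sscrofa11.1, without roles. Each liver library has 2 run columns, which were added, and the fat table has 1 per library. All 48 columns were used. Totals per liver are given with the results, and p-values set the difference between groups against the spread between pigs. Symbols came from a reference table that matched 15029 of 31908 identifiers, and positions from RefSeq.

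Counts were analysed in R 4.3.3 with edgeR 4.0.16 (filterByExpr, TMM, robust quasi-likelihood test, Benjamini-Hochberg adjustment, threshold 0.05). Every unadjusted p that is not called exact comes from this fit. Tissue, fat group and their interaction were fitted to all 32 libraries, with no term for the pig, so liver and fat libraries were treated as independent. Exact permutation tests ran over 12870 assignments. The code was tested on simulated data. Figures used matplotlib 3.10.9.

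Named genes were those passing in any fit that kept all livers, the 15 higher and 15 lower with a symbol and the smallest p, those without overlap, genes named in the paper, and list members with an unadjusted p under 0.05 or, up to 4 a list, the highest levels. HAO1, FASN, FADS1, IGFBP1, PFKFB3, PPARA, CPT1A, CRP, LEPR, HBB, ALAS2, the lung markers and the neighbours of FGL1, AHSG, SLC26A11 and FKBP5 were in part chosen after their values were seen. Some list members are not reported here. Genes and 29 lists (447 entries, 377 with a symbol in the file) were chosen with earlier results of these data known.

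Alternatives were DESeq2 1.42.0, limma-voom (limma 3.58.1), 3 other scalings, no filter, at least 10 counts in every library, no robust fitting, the replicate number as a block, each run alone, no dominant genes, and each liver left out in turn. Same-numbered HFD and LFD livers did not deviate together (correlations from -0.087 to 0.078), so numbers were not treated as pairs. Within each group, no liver was a copy of another.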

Additional observations from a re-analysis of the deposited data

Results flagged for a closer look

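Within each group of 8 livers, the highest and lowest values of library measures and of the genes named were compared with the rest by Dixon's ratio. Of 110 groups 20 stood out, and chance flags about 1 in 20. The genes compared were in part chosen after their values were seen, CRP, PPARA, CPT1A and LEPR among them, and some vary together, as FGB and FGG do, so the number that stood out is not set against chance. LFD replicate 7 had a TMM factor of 0.696 against a next lowest of 0.912 and a share of 47.2% in its 10 most counted genes against a next highest of 25.9%, with 22.9% in the gene ENSSSCG00000047299, and it was high for APCS, with 23925 normalized counts against 15345. HFD replicate 3 was the highest HFD liver, far from the next, for AHSG (292477 against 209376), ABCD4 (578.5 against 494.4), GFAP (47.2 against 13.9), CPN1 (3139 against 2427) and CPT1A (3050 against 1871). HFD replicate 4 was so for FGB (755520 against 333359), FGG (486578 against 204600), ITIH4 (244103 against 66446), CRP (85309 against 39980) and APCS (42058 against 24340). HFD replicate 2 was so for LPL (242.2 against 72.1) and FABP4 (241.1 against 45.9). LFD replicate 8 was so among LFD livers for CYP1A2 (54383 against 14200), PPARA (3027 against 1360) and LEPR (949.1 against 381.3). LFD replicate 5 held 2179 normalized counts of SYVN1 against 1349, and LFD replicate 4 held 294.5 of TMEM44 against 246.4. What sets these livers apart was not tested.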

How the results depend on the processing

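The count of genes past the adjusted threshold was 0 with edgeR and moved to 5 with DESeq2, 1 with limma-voom, 1 with library totals as the scale and 1 without a low-count filter, and it ran from 0 to 5 over the fits that left out each liver, 5 only without HFD replicate 3. It was 0 under all other alternatives, the replicate block included, with 712 genes at an unadjusted p under 0.05 under that block. The unadjusted count of 754 ran from 584 without HFD replicate 8 to 1093 without LFD replicate 3 and was 1428 without a filter. The interaction gave 0 genes, 0 with the replicate block, and 1, HAO1, without fat HFD replicate 2. Of the 37 named genes followed through all alternatives, 1007 values kept direction and side of the threshold, 11 values of 5 genes crossed it, and 8 values of 2 genes turned: APOA1 was 0.017 with library totals as the scale, and APOC3 ran from -0.0076 to -0.058 in the fits without 1 liver that reversed it and up to 0.083 in the others. The cause of these moves was not tested. Depth is high for most genes named, and the number of pigs sets the precision, with standard errors of 0.144 at the median over genes.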

Other observations

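HAO1, the peroxisomal hydroxyacid oxidase that makes glyoxylate in liver, held between 3366 and 6979 normalized counts in HFD livers (median 4076) and between 4682 and 7559 in LFD livers (median 6152). Its log2 fold change was -0.45 with a standard error of 0.15 and an unadjusted p of 0.00709, and -0.56 without HFD replicate 3. It is the gene with an adjusted p under 0.05 for the difference between the tissues once fat HFD replicate 2 is left out.

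Erythroid markers varied widely within both groups. HBB, a globin gene, ran from 2422 to 60370 normalized counts in HFD livers and from 4796 to 29152 in LFD livers, and ALAS2, the erythroid heme enzyme, from 38.7 to 1047 and from 66.7 to 537. HFD replicate 5 held the most of both, and the log2 fold changes were 0.61 and 0.70 with standard errors of 0.56 and 0.58.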
